A study of Arabidopsis thaliana with 12 samples.

Results

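Callus that formed without added auxin was compared with 2 kinds of callus kept on auxin. Each group had 3 one-colour arrays, so the comparison uses 9 of the 12 arrays of the study. The first group is Arabidopsis thaliana Col-0 carrying 35S:WIND1, a callus-like plant with no treatment. WIND1 in it is driven by the 35S promoter, which is active in most plant cells. The second is wild-type callus of T87, a suspension cell line of Arabidopsis, on medium with 500 nM of the auxin NAA. The third is wild-type callus induced with the auxin 2,4-D and kept on 500 µg/L of it. All grew on solid MS medium, and each array is a different callus. The remaining 3 arrays, 14-day-old wild-type seedlings, give a reference level and enter no test. Genotype, added auxin and origin of the callus differ together between the groups and cannot be told apart, T87 is a single cell line, and the sources used here give neither the age of the calli nor the number of transgenic lines. A gene was kept when the 35S:WIND1 mean lay on the same side of the T87 mean and of the 2,4-D mean. The tested change is the 35S:WIND1 mean minus the mean of both auxin means.

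WIND1 is an AP2/ERF transcription factor that is switched on by wounding and lets differentiated cells return to division. Auxin added to tissue induces callus along another route, in which the hormone destroys the Aux/IAA repressors, frees ARF factors and switches on LBD genes of lateral root formation, so that callus starts out like a young root. Cytokinin acts beside auxin, and the balance of both hormones decides whether callus forms shoots or roots.

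Levels are log2 processed signals minus the 75th percentile of each array. That percentile lay between 2196 and 3716 units, 57.1% to 65.9% of spots were well above background, and 0 spots were saturated. Over the genes tested, arrays correlated at 0.942 to 0.953 among the 35S:WIND1 arrays, 0.980 to 0.985 among the T87 arrays and 0.976 to 0.986 among the 2,4-D arrays, and at 0.720 to 0.805 between 35S:WIND1 and auxin callus arrays. Taken over genes, the median SD between arrays was 0.35 for 35S:WIND1, 0.18 for T87 and 0.19 for 2,4-D callus, so the 35S:WIND1 calli differed most among themselves. Each slide held replicate 1, 2 or 3 of every group, and each group kept its position on the slide, so position and group cannot be told apart. The tests pool the spread of the 3 groups into 1 value per gene. SEs and p-values can therefore be too small for genes that vary most among the 35S:WIND1 calli. With 3 arrays a group, precision is limited.

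The WIND1 transcript (AT1G78080) was higher in the transgenic callus, though the auxin calli carried it too. Its levels were 3.902, 3.202 and 3.62 on the 35S:WIND1 arrays, 2.504, 1.95 and 2.36 on the T87 arrays and 3.15, 2.74 and 2.704 on the 2,4-D arrays, against 1.199, 1.37 and 1.22 in seedlings. The 35S:WIND1 arrays lay above all 6 auxin callus arrays, and the groups did not overlap. The change was 2.01-fold (log2 change 1.01, SE 0.20, adjusted p = 0.00462), or 2.47-fold over T87 callus and 1.64-fold over 2,4-D-induced callus, and the last was not called on its own. Normexp, named here and in what follows, is another background correction, which pulls dim signals together, and a value in parentheses after a setting is the log2 change with it. WIND1 (0.94) lost its call with normexp background correction. WIND1 also lost its call with median scaling (0.63), without 35S:WIND1 replicate 1 (0.85), without 35S:WIND1 replicate 3 (0.98), without T87 replicate 2 (0.93), without 2,4-D replicate 2 (0.98) and without 2,4-D replicate 3 (0.97). In these settings its adjusted p stayed between 0.00958 and 0.0358, and the change fell under 2-fold. The sources used here do not say whether the transgene's transcript carries the probe's target. Of the close relatives, WIND4 was at least 2.14-fold higher than in T87 and at least 1.76-fold higher than in 2,4-D-induced callus, whereas WIND2 and WIND3 were not called (log2 changes -0.27 and -0.998). WIND4 (0.22) lost its call with normexp background correction. Of 8 genes in the list of WIND and wound ERF factors 4 were higher, where 14.3% of all genes tested were. The count was 2 without 35S:WIND1 replicate 3, without 2,4-D replicate 3 or with median centring, and 0 with normexp. ERF115, which acts in stem cell renewal after damage, was at least 11.8-fold higher than in T87 and 2.93-fold higher than in 2,4-D-induced callus. ERF115 (1.63) lost its call with normexp background correction.

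Most members of the lists for aquaporins, epidermis and cuticle, xylem, glucosinolates and shoot meristem were higher, and most members of those for hypoxia, DNA replication and A-type cytokinin response regulators were lower. Over 20516 genes, 2942 were called higher (14.3%) and 1998 lower (9.74%), 24.1% in either direction, at an adjusted p under 0.05 (limma, Benjamini-Hochberg) and a change of at least 2-fold. A list whose shares lie near these does not stand out from all genes. Against T87 callus alone 19.5% of genes were higher and 17.1% lower, against 2,4-D-induced callus 16.4% and 11.6%. These comparisons share the 35S:WIND1 arrays. Called against each auxin callus separately were 1766 higher (8.61%) and 704 lower genes (3.43%). The 35S:WIND1 arrays lay above all 6 auxin callus arrays for 13.6% of all genes and below them for 11.6%. Another 447 genes were called above T87 but below 2,4-D-induced callus, and 370 the reverse, so the rule left them out. Of the called genes 59.6% were higher, against 37.2% when arrays were centred on their median and 86.9% with the deposited series values. Over all genes the median log2 change was -0.066. It moved to -0.446 with median centring, to -0.121 with quantile normalization and to 0.519 with the deposited series values. In these bulk samples fewer cells of a type and less RNA per cell cannot be told apart.

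**Figure D1:**
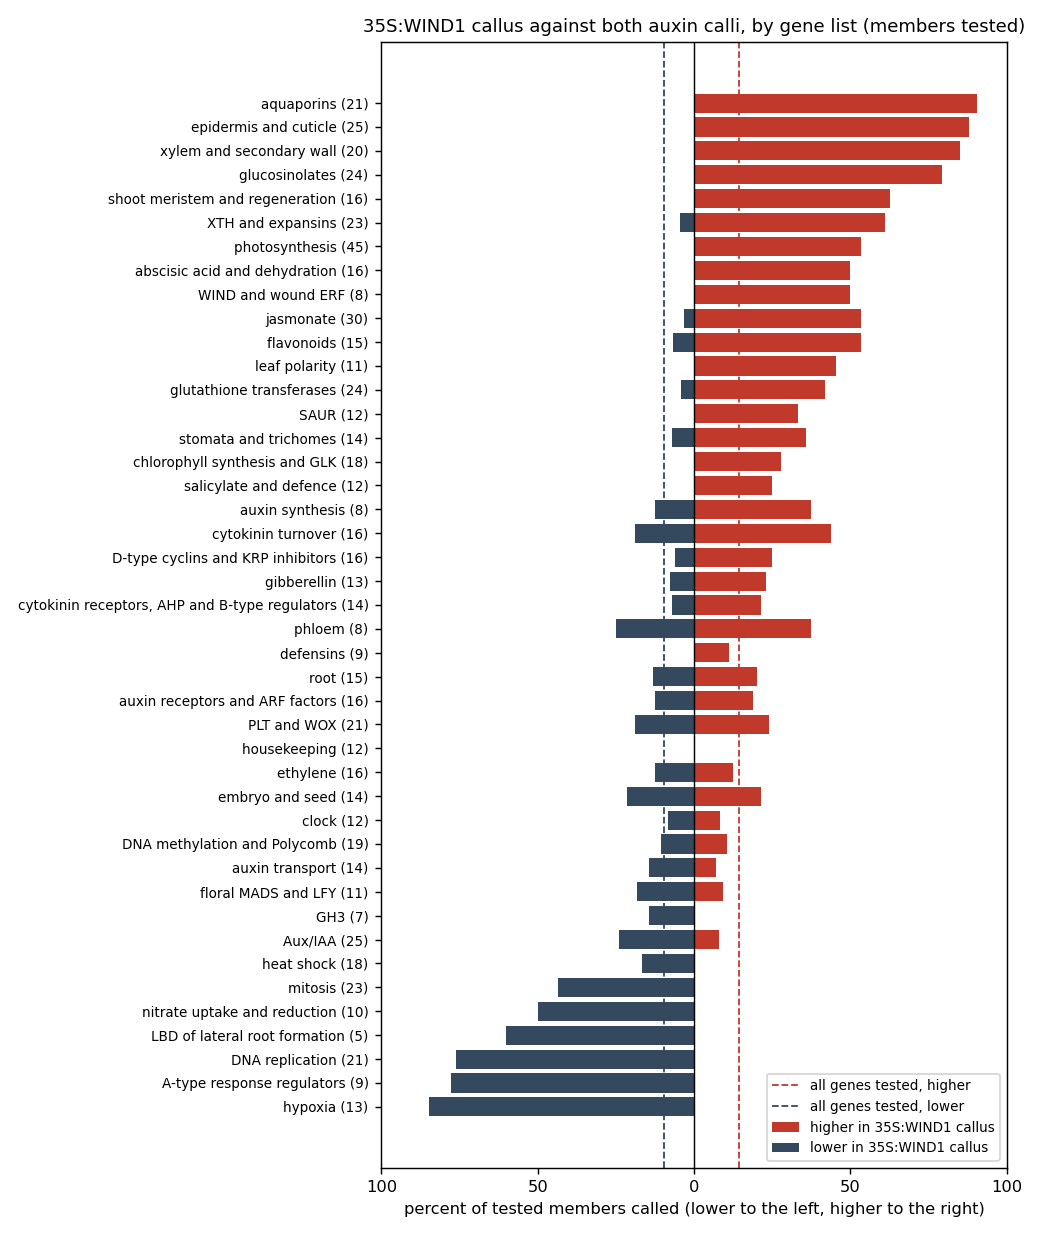
Percent of the tested members of each of the 43 gene lists called higher (bars to the right) or lower (bars to the left) in 35S:WIND1 callus. The call is against the mean of both auxin calli and asks for the same sign, with no threshold, against each. The number of members tested is in parentheses. Dashed lines mark the shares among all genes tested, 14.3% higher and 9.74% lower. The bars for aquaporins and for epidermis and cuticle reach furthest right, and that for hypoxia reaches furthest left.

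Early auxin response genes did not form a single block. Of 25 Aux/IAA genes tested, which encode the repressors that auxin destroys and whose transcription auxin raises, 2 were higher and 6 lower (median log2 change -0.67). Against T87 callus their median was 0.14 and against 2,4-D-induced callus -2.12. IAA5 (AT1G15580) had levels of -1.55, -3.70 and -4.27 on the 35S:WIND1 arrays, 0.53, 1.02 and 0.63 on the T87 arrays and 3.83, 3.14 and 3.25 on the 2,4-D arrays. IAA1 (AT4G14560) had -0.12, -0.83 and -1.55 on the 35S:WIND1 arrays, 3.62, 3.61 and 3.298 on the T87 arrays and 2.704, 2.28 and 2.44 on the 2,4-D arrays. All 3 arrays of 35S:WIND1 callus were below all 6 auxin arrays for both, which the rule that named IAA5 required. IAA5 was 14.9-fold lower than in T87 and 95.8-fold lower than in 2,4-D-induced callus (log2 change -5.24, SE 0.54, adjusted p = 0.000182). IAA1 was 20.3-fold lower than in T87 and 9.89-fold lower than in 2,4-D-induced callus (log2 change -3.82, SE 0.29, adjusted p = 4.49e-05). IAA14, the repressor that blocks lateral root founder cells, read -4.07, -4.21 and -3.53 on the 35S:WIND1 arrays, -2.02, -1.90 and -1.47 on the T87 arrays and -1.90, -1.85 and -1.95 on the 2,4-D arrays, and was 4.26-fold lower than the mean of both auxin calli (adjusted p = 9.35e-05). IAA7 went the other way and was 15.9-fold higher than in T87 and 5.40-fold higher than in 2,4-D-induced callus (adjusted p = 0.000635), with seedling levels of 2.399, 2.34 and 2.38. Aux/IAA calls (higher and lower) came to 1 and 9 with median centring, 4 and 4 with deposited values, 1 and 6 without 35S:WIND1 replicate 1 or without T87 replicate 3, and 1 and 7 without 35S:WIND1 replicate 2 or without T87 replicate 1. IAA14 (-1.07) lost its call with normexp background correction.

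GH3 genes encode enzymes that join auxin to amino acids and so inactivate it, and 1 of 7 was lower and 0 higher. Among all genes tested 9.74% were lower and 14.3% higher. GH3.3 read 1.84, 2.28 and 1.70 on the 35S:WIND1 arrays, 1.59, -0.41 and -1.08 on the T87 arrays and 7.05, 7.36 and 6.76 on the 2,4-D arrays. GH3.5 read 2.18, 2.304 and 2.86 on the 35S:WIND1 arrays, 1.26, 0.19 and 0.31 on the T87 arrays and 4.71, 4.67 and 4.37 on the 2,4-D arrays. GH3.6 read 1.199, 2.12 and 2.66 on the 35S:WIND1 arrays, 1.14, -0.066 and 0.74 on the T87 arrays and 4.47, 4.42 and 4.79 on the 2,4-D arrays. On all 3 genes 35S:WIND1 callus stood between T87 callus below and 2,4-D-induced callus above, so no gene of this trio passed the rule. GH3.2 alone was lower than in both, with levels of -5.71, -5.53 and -4.93 on the 35S:WIND1 arrays, -2.62, -3.21 and -4.17 on the T87 arrays and 2.56, 2.41 and 2.31 on the 2,4-D arrays, and 4.17-fold lower than in T87 and 225-fold lower than in 2,4-D-induced callus (log2 change -4.94, SE 0.33, adjusted p = 2.74e-05). LBD16 (AT2G42430), a factor that auxin switches on in lateral root founder cells and that callus formation needs, read -3.65, -4.94 and -3.97 on the 35S:WIND1 arrays, 0.23, 0.19 and 0.17 on the T87 arrays and 0.67, 0.55 and 0.41 on the 2,4-D arrays. The auxin calli lay within a narrow band and the 35S:WIND1 arrays far beneath it, near the seedlings (-3.15, -4.33 and -3.19). That the arrays did not overlap was required by the rule that named LBD16. The gene was 20.8-fold lower than in T87 and 26.5-fold lower than in 2,4-D-induced callus (log2 change -4.55, SE 0.26, adjusted p = 1.65e-05). LBD18 and LBD29, related factors, were well above background in 2,4-D-induced callus and on no array of the other calli. There they were at least 3.33-fold and at least 2.35-fold higher than in 35S:WIND1 callus. LBD calls (higher and lower) came to 0 and 1 with normexp. LBD18 (-0.18) and LBD29 (-0.15) lost their calls with normexp background correction. LBD29 also lost its call with quantile normalization (-1.74), with the series values as deposited (-1.13), without 35S:WIND1 replicate 1 (-1.69), without 35S:WIND1 replicate 3 (-1.67) and without T87 replicate 1 (-1.65). There its log2 change against T87 callus was 0.0017 to 0.48, so LBD29 was no longer lower than in T87 callus.

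**Figure D2:**
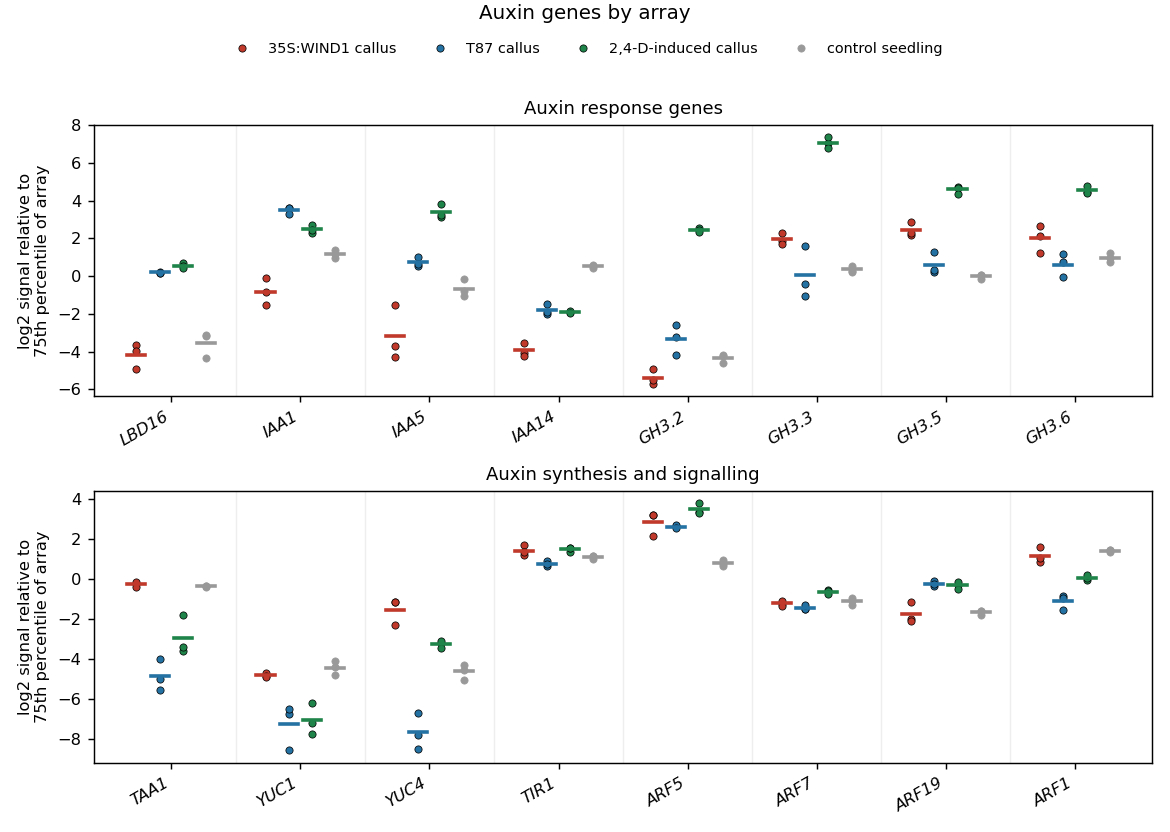
Log2 signal relative to the 75th percentile of each array for auxin response genes (upper panel) and auxin synthesis and signalling genes (lower panel), 1 point per array and a bar at each group mean, with seedlings in grey. LBD16, IAA1 and IAA5 lie lower on all 3 arrays of 35S:WIND1 callus than on any auxin callus array, GH3.3, GH3.5 and GH3.6 lie between T87 and 2,4-D-induced callus, and TAA1, YUC1 and YUC4 lie higher. The rule that named LBD16 and IAA5 required no overlap.

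Genes of 3 auxin synthesis enzymes were higher in the callus given no auxin. TAA1 (AT1G70560), the aminotransferase that starts synthesis from tryptophan, read -0.26, -0.16 and -0.40 on the 35S:WIND1 arrays, -4.00, -5.58 and -4.99 on the T87 arrays and -3.60, -3.43 and -1.83 on the 2,4-D arrays. YUC4, a flavin monooxygenase of the next step, read -1.15, -1.19 and -2.32 on the 35S:WIND1 arrays, -8.54, -6.70 and -7.80 on the T87 arrays and -3.23, -3.14 and -3.46 on the 2,4-D arrays. YUC1, its relative, read -4.73, -4.87 and -4.90 on the 35S:WIND1 arrays, -6.77, -8.59 and -6.53 on the T87 arrays and -7.21, -7.77 and -6.21 on the 2,4-D arrays. The groups did not overlap for any of these 3 genes, and TAA1 stood at the seedling level (-0.36, -0.42 and -0.34). TAA1 was 24.003-fold higher than in T87 and 6.404-fold higher than in 2,4-D-induced callus (log2 change 3.63, SE 0.46, adjusted p = 0.000481), YUC4 was at least 33.9-fold higher than in T87 and 3.3003-fold higher than in 2,4-D-induced callus, and YUC1 at least 3.32-fold higher than in T87 and 4.69-fold higher than in 2,4-D-induced callus. In all, 3 of 8 synthesis genes were higher and 1 lower (median 1.32, or 0.81 with genes at their bounds). Among 16 auxin receptor and ARF genes 3 were higher and 2 lower (18.8% and 12.5%), near the 14.3% and 9.74% of all genes tested. ARF19, an activator of lateral root formation, was 2.87-fold lower than in T87 and 2.71-fold lower than in 2,4-D-induced callus, and ARF1, a repressor, was 4.89-fold higher than in T87 and 2.16-fold higher than in 2,4-D-induced callus. The log2 changes of TIR1, the main receptor, and of ARF5 and ARF7, activators of auxin response, were 0.29, -0.21 and -0.18, and none was called. Of 14 transport genes 1 was higher and 2 lower (7.14% and 14.3%). In the SAUR family of growth genes 4 of 12 were higher, among them SAUR14, 82.4-fold higher than in T87 and at least 40.5-fold higher than in 2,4-D-induced callus, and SAUR32, 5.35-fold higher than in T87 and 5.84-fold higher than in 2,4-D-induced callus. Synthesis calls (higher and lower) came to 1 and 0 with normexp, 3 and 2 with quantile normalization, 3 and 3 with median centring, 4 and 0 with deposited values, 5 and 2 with no filter on dim probes, and 3 and 0 without 2,4-D replicate 2. Receptor and ARF calls (higher and lower) came to 2 and 1 with normexp, 6 and 0 with deposited values, and 4 and 1 without 35S:WIND1 replicate 1. Transport calls (higher and lower) came to 1 and 1 with normexp or without T87 replicate 1 or 3, 0 and 4 with median centring, 4 and 0 with deposited values, 0 and 3 without 35S:WIND1 replicate 1, 1 and 0 without 35S:WIND1 replicate 2, 2 and 2 without 35S:WIND1 replicate 3, and 3 and 2 without 2,4-D replicate 3. YUC1 was well above background on 1 of 3 2,4-D arrays and SAUR14 on 1 of 3 T87 arrays. SAUR14 (2.46), ARF19 (-0.93), YUC1 (0.46) and YUC4 (1.97) lost their calls with normexp background correction, which left 1 SAUR gene called. ARF19 also lost its call with the series values as deposited (-0.89).

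Most immediate targets of cytokinin were lower. The A-type response regulators are switched on within minutes by cytokinin and damp its signal, and 7 of 9 were lower and 0 higher (median -2.38, or -2.30 with genes at their bounds). ARR4 (AT1G10470) read -0.91, -0.24 and -0.78 on the 35S:WIND1 arrays, 0.94, 2.38 and 2.61 on the T87 arrays and 3.42, 3.76 and 3.64 on the 2,4-D arrays. ARR7 (AT1G19050) read -4.17, -2.46 and -4.06 on the 35S:WIND1 arrays, -1.78, -0.23 and 0.21 on the T87 arrays and -0.79, -0.26 and -0.14 on the 2,4-D arrays. For both, no 35S:WIND1 array reached the lowest auxin callus array, and seedlings stood higher (2.68, 2.98 and 2.98 for ARR4). ARR4 was 6.17-fold lower than in T87 and 19.1-fold lower than in 2,4-D-induced callus (log2 change -3.44, SE 0.36, adjusted p = 0.000199), and ARR7 7.80-fold lower than in T87 and 8.98-fold lower than in 2,4-D-induced callus (log2 change -3.07, SE 0.52, adjusted p = 0.00208). ARR9 was also lower, 2.41-fold and 11.3-fold. ARR15, well above background on 1 of 3 35S:WIND1 arrays, was lower by 3.64-fold and 5.32-fold. ARR5 and ARR6 were called too, with log2 changes of -1.02 and -1.05 against T87 callus and -3.57 and -5.11 against 2,4-D-induced callus. Cytokinin turnover was mixed, with 7 higher and 3 lower of 16 (median 1.19, or 0.70 with genes at their bounds). CKX5, an oxidase that degrades the hormone, was 4.90-fold lower than in T87 and 31.1-fold lower than in 2,4-D-induced callus, while CKX7, a relative in the cytosol, was at least 27.9-fold higher than in T87 and 5.87-fold higher than in 2,4-D-induced callus. LOG1 and LOG7, which release active cytokinin from its nucleotide, were 6.60-fold and 10.8-fold higher than the mean of both auxin calli. Of 14 receptor, phosphotransfer and B-type regulator genes 3 were higher and 1 lower (21.4% and 7.14%), where 14.3% and 9.74% of all genes tested were. AHK4, the main root receptor, was 8.18-fold lower than in T87 and 1.84-fold lower than in 2,4-D-induced callus, and AHK2, another receptor, 7.94-fold higher than in T87 and 1.57-fold higher than in 2,4-D-induced callus. Receptor, phosphotransfer and B-type calls (higher and lower) came to 0 and 1 with normexp, and 2 and 2 with median centring. ARR5 (-1.57), ARR6 (-1.47), ARR7 (-1.76), ARR15 (-0.40), AHK2 (1.23), LOG1 (1.23), LOG7 (2.24) and CKX7 (1.69) lost their calls with normexp background correction, which left 2 A-type regulators called lower and 0 turnover genes higher.

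The stem cell genes of the shoot apex were high in 35S:WIND1 callus. Of 16 shoot meristem and regeneration genes 10 were higher and 0 lower (median 3.82, or 3.32 with genes at their bounds), and all 10 were also called against each auxin callus. WUS (AT2G17950), the homeodomain factor of the organizing centre, read 0.42, 1.21 and -0.35 on the 35S:WIND1 arrays, -4.91, -3.51 and -4.93 on the T87 arrays and -8.12, -7.14 and -8.97 on the 2,4-D arrays. CLV3 (AT2G27250), the peptide that limits WUS, read 2.54, 1.39 and 0.23 on the 35S:WIND1 arrays, -5.09, -5.10 and -4.99 on the T87 arrays and -7.83, -7.60 and -7.02 on the 2,4-D arrays. STM, the KNOX factor that keeps meristem cells undifferentiated, read 3.174, 3.58 and 2.16 on the 35S:WIND1 arrays, -6.03, -8.46 and -8.28 on the T87 arrays and -1.66, -0.91 and -1.90 on the 2,4-D arrays. These 3 genes were above every auxin callus array on every 35S:WIND1 array, and WUS and CLV3 were near the floor in seedlings (-8.43, -7.47 and -8.51 and -6.69, -6.03 and -8.07). WUS was 29.4-fold higher than in T87 and at least 118-fold higher than in 2,4-D-induced callus (log2 change 6.69, SE 0.52, adjusted p = 5.4e-05). CLV3 was 87.3-fold higher than in T87 and at least 231-fold higher than in 2,4-D-induced callus (log2 change 7.66, SE 0.44, adjusted p = 1.78e-05). STM was 1513-fold higher than in T87 and 22.1-fold higher than in 2,4-D-induced callus (log2 change 7.51, SE 0.58, adjusted p = 5.22e-05). CLV1, the receptor of CLV3, was 37.7-fold higher than in T87 and 15.8-fold higher than in 2,4-D-induced callus, and CUC1, which marks organ boundaries, 32.8-fold higher than in T87 and 8.53-fold higher than in 2,4-D-induced callus. ESR2, which promotes shoot regeneration, was 33.7-fold higher, but its relative ESR1, a gene that WIND1 is known to activate, had levels of 2.202, 2.18 and 1.48 on the 35S:WIND1 arrays, 2.03, 2.23 and 2.26 on the T87 arrays and -0.64, -1.69 and -2.40 on the 2,4-D arrays. ESR1 levels overlapped those of T87 callus, and the gene was not called. CUC2, KNAT1 and KNAT6 were not called either. STM was well above background on 1 of 3 T87 arrays and ESR2 on 1 of 3 T87 arrays and 1 of 3 2,4-D arrays. ESR2 (2.01) lost its call with normexp background correction, which left 6 genes of the list higher.

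**Figure D3:**
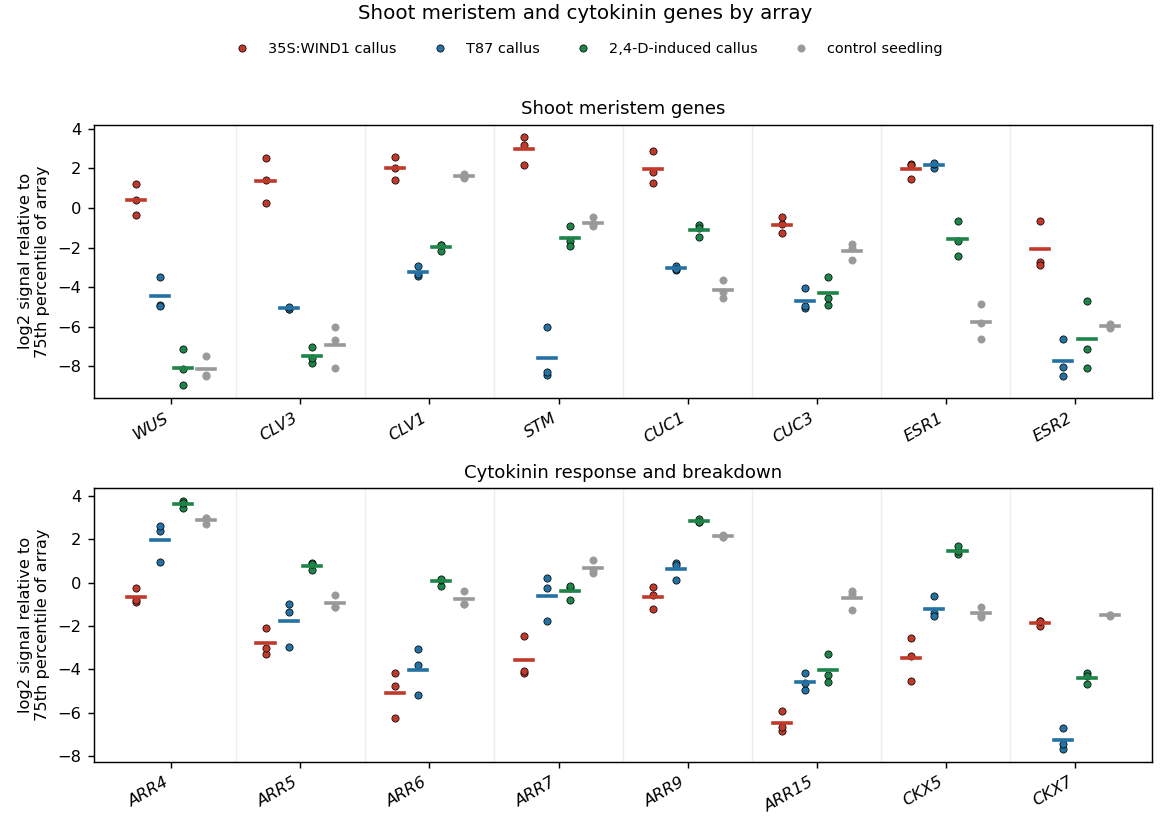
Log2 signal relative to the 75th percentile of each array for shoot meristem genes (upper panel) and for cytokinin response and breakdown genes (lower panel), 1 point per array and a bar at each group mean. WUS, CLV3, CLV1, STM, CUC1, CUC3 and ESR2 lie higher on every 35S:WIND1 array than on any auxin callus array, whereas ARR4, ARR7, ARR9, ARR15 and CKX5 lie lower.

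Root stem cell and embryo regulators gave another picture. In the PLT and WOX list 5 were higher and 4 lower of 21 (23.8% and 19%, where 14.3% and 9.74% of all genes tested were). The list's median was 0.39, or 0.14 with genes at their bounds. Of the 4 lower genes 0 lay below all auxin callus arrays on every 35S:WIND1 array, and 1 gene of the list was called lower against each auxin callus. ANT (AT4G37750), a PLT relative that drives growth of young organs, read 1.90, 2.92 and 1.22 on the 35S:WIND1 arrays, -5.67, -7.03 and -5.84 on the T87 arrays and -1.75, -1.33 and -1.04 on the 2,4-D arrays and was 293-fold higher than in T87 and 10.5-fold higher than in 2,4-D-induced callus (adjusted p = 4.33e-05). BBM (AT5G17430), a PLT factor of embryos and root tips, read -8.71, -8.34 and -6.16 on the 35S:WIND1 arrays, -5.87, -5.69 and -6.18 on the T87 arrays and 2.07, 2.66 and 2.65 on the 2,4-D arrays. It was 3.53-fold lower than in T87 and 1173-fold lower than in 2,4-D-induced callus, and T87 and 35S:WIND1 arrays overlapped. PLT1 and PLT2, which hold the root stem cell niche, were well above background in 2,4-D-induced callus only, at -0.12, 0.18 and 0.72 and 0.87, 0.99 and 1.43. Both count among the lower genes, but their sign against T87 callus rests on signals near background. PLT1 lost its call with quantile normalization, with the deposited values and without T87 replicate 1. Its log2 change against T87 callus was then 0.0019, 0.46 and 0.043. WOX5, the factor of the root quiescent centre, read 0.057, -1.28 and -0.90 on the 35S:WIND1 arrays, -6.02, -5.55 and -5.66 on the T87 arrays and 1.64, 1.88 and 1.86 on the 2,4-D arrays, so 35S:WIND1 callus lay between the auxin calli and the gene was not kept. Embryo and seed genes numbered 3 higher and 3 lower of 14 (21.4% each), where 14.3% of all genes tested were higher and 9.74% lower. LEC1 (AT1G21970), a master regulator of embryo identity, read -4.34, -4.27 and -4.04 on the 35S:WIND1 arrays, 2.31, 3.11 and 2.01 on the T87 arrays and -1.21, -1.56 and -0.35 on the 2,4-D arrays, and was 103-fold lower than in T87 and 9.03-fold lower than in 2,4-D-induced callus (log2 change -4.93, SE 0.32, adjusted p = 2.38e-05). EM1, a protein of drying seeds, was 18.4-fold higher than in T87 and 16.2-fold higher than in 2,4-D-induced callus, and the oleosin OLEO4 was 4.12-fold higher than in T87 and 48.6-fold higher than in 2,4-D-induced callus. FUS3 and ABI3, partners of LEC1, were not kept (log2 changes -6.39 and -2.77 against T87 callus, 0.49 and 1.02 against 2,4-D-induced callus). Among 11 floral genes 1 was higher and 2 lower. PI (AT5G20240), a MADS factor of petals and stamens, read -0.078, -2.08 and -0.28 on the 35S:WIND1 arrays, 4.64, 3.72 and 4.16 on the T87 arrays and 5.09, 5.38 and 5.07 on the 2,4-D arrays, and was 31.8-fold lower than in T87 and 63.7-fold lower than in 2,4-D-induced callus (log2 change -5.49, SE 0.44, adjusted p = 5.84e-05), and its partner AP3 was not called. Embryo and seed calls (higher and lower) came to 2 and 1 with normexp, 2 and 5 with median centring, and 3 and 1 with deposited values. Floral calls (higher and lower) came to 0 and 1 with normexp, 2 and 2 with no filter on dim probes, and 0 and 2 with array weights per group or without 35S:WIND1 replicate 3. ANT was well above background on 2 of 3 T87 arrays, BBM on 1 of 3 35S:WIND1 arrays and OLEO4 on 2 of 3 2,4-D arrays. BBM (-2.78) lost its call with normexp background correction, which left 3 PLT and WOX genes higher and 0 lower.

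Aquaporins, the water channels of the plasma membrane (PIP) and the vacuole (TIP), were the list with the highest share of higher genes. Of 21 tested, 19 were higher and 0 lower (median 3.89), and 17 were called against each auxin callus. TIP1;1 (AT2G36830) read 6.98, 6.38 and 7.14 on the 35S:WIND1 arrays, 0.66, -4.07 and -3.51 on the T87 arrays and -2.38, -1.32 and -1.23 on the 2,4-D arrays. TIP2;2 (AT4G17340) read 6.42, 5.67 and 6.93 on the 35S:WIND1 arrays, 0.49, -0.45 and -1.24 on the T87 arrays and -4.49, -5.36 and -3.75 on the 2,4-D arrays. PIP2;3 (AT2G37180) read 6.04, 4.99 and 6.02 on the 35S:WIND1 arrays, 0.84, 0.12 and 0.66 on the T87 arrays and 0.63, -0.057 and -1.10 on the 2,4-D arrays. Every 35S:WIND1 array exceeded every auxin callus array for these channels, and it stood at or above the seedling level (5.87, 6.06 and 5.84, 3.3005, 3.43 and 3.42 and 2.24, 2.37 and 2.096). TIP1;1, TIP2;2 and PIP2;3 were named by a rule that required their arrays not to overlap. T87 replicate 1 was higher for TIP1;1 than the other T87 arrays. TIP1;1 was 563-fold higher than in T87 and 355-fold higher than in 2,4-D-induced callus (log2 change 8.80, SE 0.96, adjusted p = 0.000238). TIP2;2 was 107-fold higher than in T87 and 1875-fold higher than in 2,4-D-induced callus (log2 change 8.80, SE 0.48, adjusted p = 1.37e-05). PIP2;3 was 35.4-fold higher than in T87 and 58.1-fold higher than in 2,4-D-induced callus (log2 change 5.50, SE 0.41, adjusted p = 4.32e-05). TIP2;3 was 947-fold higher than in T87 and at least 742-fold higher than in 2,4-D-induced callus, with signals well above background on 1 of 3 T87 arrays. The plasma membrane channels PIP1;1, PIP2;1, PIP2;2 and PIP1;3 were 16.7-fold, 14.8-fold, 26.6-fold and 16.5-fold higher than the mean of both auxin calli. PIP2;7 and PIP2;8 were not called (0.44 and 2.13). PIP2;2 and PIP2;3 are near-identical copies and may share signal.

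**Figure D4:**
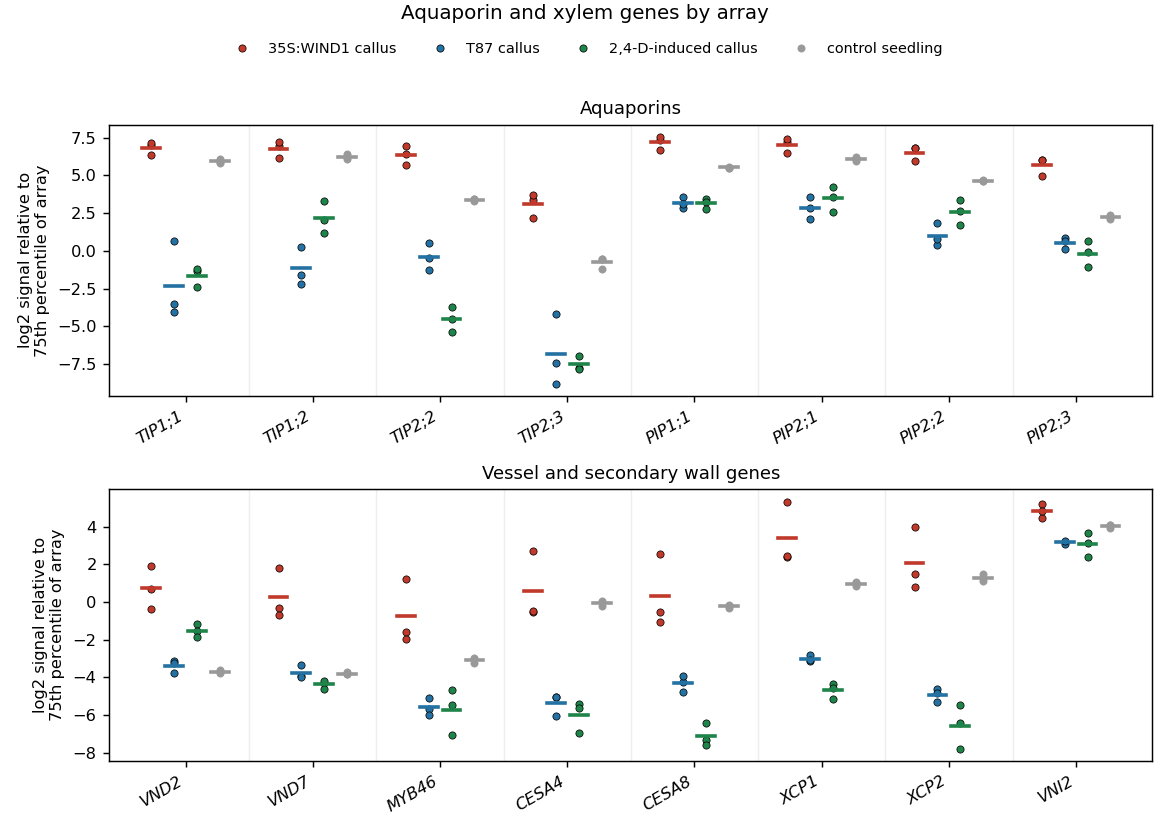
Log2 signal relative to the 75th percentile of each array for aquaporins (upper panel) and for vessel and secondary wall genes (lower panel), 1 point per array and a bar at each group mean. All 16 genes lie higher on each 35S:WIND1 array than on any auxin callus array, and 35S:WIND1 replicate 1 stands highest for all 8 vessel and wall genes.

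Vessel genes were higher, most of all in 1 of the 3 calli. Of 20 xylem and secondary wall genes 17 were higher and 0 lower (median 3.75, or 3.74 with genes at their bounds), and 16 were called against each auxin callus. VND7 (AT1G71930), the NAC factor that commits cells to vessels, read 1.84, -0.30 and -0.68 on the 35S:WIND1 arrays, -3.93, -3.32 and -3.97 on the T87 arrays and -4.28, -4.17 and -4.64 on the 2,4-D arrays. XCP1 (AT4G35350), a protease that clears dying vessel cells, read 5.33, 2.37 and 2.47 on the 35S:WIND1 arrays, -3.13, -2.83 and -3.10 on the T87 arrays and -5.14, -4.35 and -4.56 on the 2,4-D arrays. CESA4, a cellulose synthase of the secondary wall, read 2.696, -0.51 and -0.46 on the 35S:WIND1 arrays, -6.04, -5.05 and -5.06 on the T87 arrays and -6.95, -5.40 and -5.62 on the 2,4-D arrays. The 35S:WIND1 arrays were above all 6 auxin callus arrays for these genes, with replicate 1 far above replicates 2 and 3. For XCP1 the naming rule required that the arrays did not overlap. The list's median level was 1.26 in replicate 1, -1.61 in replicate 2 and -1.84 in replicate 3, against -5.38 to -4.64 in the auxin calli and -2.62 to -2.37 in seedlings. VND7 was 16.3-fold higher than in T87 and 25.1-fold higher than in 2,4-D-induced callus (log2 change 4.34, SE 0.51, adjusted p = 0.000354). XCP1 was 85.0-fold higher than in T87 and 269.6-fold higher than in 2,4-D-induced callus (log2 change 7.24, SE 0.62, adjusted p = 8.01e-05). The SD of XCP1 was 1.68 on the 35S:WIND1 arrays, 0.16 on the T87 arrays and 0.41 on the 2,4-D arrays. Its pooled SE therefore understates the spread in 35S:WIND1 callus. CESA4 was 62.1-fold higher than in T87 and 94.5-fold higher than in 2,4-D-induced callus (log2 change 6.26, SE 0.75, adjusted p = 0.000373). XCP2, a relative of XCP1, was 229-fold higher, the xylan synthesis gene IRX9 at least 25.0-fold higher, and LAC17, a laccase of lignin synthesis, 18.9-fold higher. VNI2, which binds and restrains VND7, was also higher, 3.168-fold and 3.39-fold. CTL2 and GLP10, a chitinase-like and a germin-like protein gene, had the same shape, with levels of 3.00, -0.029 and -0.72 and 3.37, 0.51 and 0.16 in the 3 35S:WIND1 calli, and were 56.1-fold and 58.5-fold higher than the auxin mean. Without 35S:WIND1 replicate 1 the list's median fell to 2.85 with 16 genes still called. In the phloem list 3 of 8 were higher and 2 lower. SUC2, the sucrose loader of companion cells, was 51.6-fold higher than in T87 and 11.5-fold higher than in 2,4-D-induced callus, and CALS7, a callose synthase of sieve plates, was 4.67-fold lower than in T87 and 3.67-fold lower than in 2,4-D-induced callus. Phloem calls (higher and lower) came to 2 and 0 with normexp. CESA4 was well above background on 2 of 3 2,4-D arrays and XCP2 on 2 of 3 2,4-D arrays. IRX9 (2.2996) and CALS7 (-0.85) lost their calls with normexp background correction, which left 9 xylem genes higher.

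Most genes of the plant surface were higher in 35S:WIND1 callus. Of 25 epidermis and cuticle genes 22 were higher and 0 lower (median 4.33, or 4.00 with genes at their bounds), and against T87 callus the median was 6.10, against 2,4-D-induced callus 2.36. ATML1 (AT4G21750), which sets epidermal identity, read 0.032, 0.65 and 0.28 on the 35S:WIND1 arrays, -2.51, -2.67 and -3.10 on the T87 arrays and -2.61, -2.05 and -2.56 on the 2,4-D arrays. CER6, which elongates wax precursors, read 1.95, 3.16 and 3.596 on the 35S:WIND1 arrays, -3.53, -3.84 and -4.19 on the T87 arrays and -0.27, 0.98 and 0.69 on the 2,4-D arrays. LTP4, a lipid transfer protein gene, read 3.39, 4.199 and 4.94 on the 35S:WIND1 arrays, -2.72, -8.63 and -8.66 on the T87 arrays and -8.57, -7.66 and -5.80 on the 2,4-D arrays. No auxin callus array reached any 35S:WIND1 array for these genes, and 2,4-D-induced callus stood nearer to them than T87 callus for CER6. ATML1 was 8.46-fold higher than in T87 and 6.63-fold higher than in 2,4-D-induced callus (log2 change 2.90, SE 0.21, adjusted p = 3.8e-05). CER6 was 108-fold higher than in T87 and 5.41-fold higher than in 2,4-D-induced callus (log2 change 4.59, SE 0.41, adjusted p = 9.2e-05). LTP4 was 1841-fold higher than in T87 and 2940.0-fold higher than in 2,4-D-induced callus (log2 change 11.18, SE 1.34, adjusted p = 0.000378). CER1 and CER2, further wax genes, were 16.0-fold and at least 31.5-fold higher than the auxin mean. KCS1, an enzyme of long fatty acids, and GPAT4, an enzyme of cutin, were 28.8-fold and 32.3-fold higher. ACR4, CER3 and HTH were not called. LTP4 was well above background on 1 of 3 T87 arrays and 1 of 3 2,4-D arrays. CER2 (1.87) lost its call with normexp background correction, which left 14 genes of the list higher.

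Specialized surface cells were less uniform. Among 14 stomata and trichome genes 5 were higher and 1 lower (median 0.96). ERECTA (AT2G26330), a receptor kinase of organ growth and stomatal spacing, read 0.14, 0.60 and 0.79 on the 35S:WIND1 arrays, -6.76, -6.48 and -6.16 on the T87 arrays and -6.08, -5.26 and -3.51 on the 2,4-D arrays, and was 126-fold higher than in T87 and 44.05-fold higher than in 2,4-D-induced callus (log2 change 6.22, SE 0.50, adjusted p = 6.13e-05). Its relatives ERL1 and ERL2 were at least 68.8-fold and 27.5-fold higher than the auxin mean, and EPF1, a peptide of the same pathway, at least 28.7-fold. TMM, another receptor of stomatal spacing, was not called (1.00). SPCH and FAMA were not tested, since no callus group had them well above background on all 3 arrays. GL2, which holds trichome and root epidermis fate, was 6.33-fold lower than in T87 and 2.401-fold lower than in 2,4-D-induced callus, whereas GL1, which starts trichomes, was at least 3.02-fold higher than in T87 and at least 2.65-fold higher than in 2,4-D-induced callus. In the root list 3 of 15 genes were higher, where 14.3% of all genes tested were, and 2 lower. The higher ones, COBL9, EXPA7 and EXPA18, act in root hairs and were 23.1-fold, 81.4-fold and 37.8-fold higher than the auxin mean. The lower ones were WER and BRN1, and neither lay below all auxin callus arrays. EXPA7 read -0.082, 0.40 and 1.11 on the 35S:WIND1 arrays, -7.03, -6.72 and -6.51 on the T87 arrays and -6.17, -4.58 and -4.21 on the 2,4-D arrays. MOP10, a gene of root hair growth outside the list, read 1.04, 1.98 and 2.41 on the 35S:WIND1 arrays, -5.02, -6.29 and -5.59 on the T87 arrays and -4.34, -3.64 and -3.04 on the 2,4-D arrays, and was 174-fold higher than in T87 and 44.7-fold higher than in 2,4-D-induced callus. PRP1, a wall protein gene of root hairs, was at least 78.2-fold higher. The Casparian strip genes CASP1 and CASP2 and their regulator MYB36 were not called (0.11, -0.081 and -0.22). In leaf polarity genes 5 of 11 were higher and 0 lower. KAN2 and KAN3, factors of the lower leaf side, were at least 8.83-fold and at least 8.77-fold higher, while PHB, PHV and REV of the upper side had changes from -0.79 to -0.15 and were not called. Root list calls (higher and lower) came to 2 and 0 with normexp, 5 and 0 with deposited values, and 3 and 1 without T87 replicate 2. Stomata and trichome calls (higher and lower) came to 2 and 0 with normexp, and 5 and 3 without 35S:WIND1 replicate 3. ERECTA was well above background on 2 of 3 T87 arrays, ERL1 on 1 of 3 2,4-D arrays, EXPA7 on 2 of 3 T87 arrays, EXPA18 on 2 of 3 T87 arrays and GL2 on 1 of 3 35S:WIND1 arrays. ERL1 (2.74), EPF1 (1.93), GL1 (0.56), GL2 (-0.49), COBL9 (2.3996), KAN2 (1.55) and KAN3 (0.98) lost their calls with normexp background correction, which left 1 leaf polarity gene. WER (-0.75) and BRN1 (-0.51) lost theirs with normexp too, and with the series values as deposited (-2.95 and -2.35). WER also lost its call without T87 replicate 2 (-3.28). Its log2 change against T87 callus was 0.069 with the deposited values and 0.066 without T87 replicate 2. That of BRN1 was 0.41 with the deposited values. In these settings neither gene was lower than in T87 callus.

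Glucosinolates are sulfur compounds that Arabidopsis stores against herbivores and that myrosinase enzymes break down. Of 24 genes of the pathway 19 were higher and 0 lower (median 3.49, or 2.698 with genes at their bounds). MYB29 (AT5G07690), a factor that switches on the aliphatic branch, made from methionine, read 0.26, 0.51 and 0.70 on the 35S:WIND1 arrays, -6.96, -8.47 and -7.71 on the T87 arrays and -8.52, -7.49 and -8.87 on the 2,4-D arrays. MAM1 (AT5G23010), which lengthens the methionine chain, read 2.03, 2.94 and 3.49 on the 35S:WIND1 arrays, -4.71, -9.04 and -8.34 on the T87 arrays and -7.63, -7.20 and -4.29 on the 2,4-D arrays. CYP83A1, the oxidase of the core pathway, read 2.104, 3.65 and 3.45 on the 35S:WIND1 arrays, -4.67, -9.03 and -9.04 on the T87 arrays and -9.07, -8.05 and -7.19 on the 2,4-D arrays. In both auxin calli these genes were at or close to background, and in 35S:WIND1 callus they stood below the seedlings (2.71, 2.81 and 2.48 for MYB29 and 5.01, 5.30 and 5.02 for CYP83A1). For MYB29 the naming rule required that no auxin callus array was well above background. The list's median level was -0.12, 0.77 and 1.58 in the 35S:WIND1 calli and -7.45 to -4.47 in the auxin calli, where T87 replicate 1 stood above the other T87 arrays for MAM1 and CYP83A1. MYB29 was at least 141-fold higher than in T87 and at least 124-fold higher than in 2,4-D-induced callus (log2 change 8.49, SE 0.39, adjusted p = 6.39e-06). MAM1 was 1164-fold higher than in T87 and 587-fold higher than in 2,4-D-induced callus (log2 change 9.69, SE 1.08, adjusted p = 0.000266). CYP83A1 was 1603-fold higher than in T87 and at least 739-fold higher than in 2,4-D-induced callus (log2 change 10.91, SE 1.00, adjusted p = 0.000105). BCAT4, IPMI1 and IMD1, further steps of chain elongation, were 520.0-fold, at least 101-fold and 99.96-fold higher than the auxin mean, and the glutathione transferase genes GSTU20 and GSTF11, 419-fold and at least 31.4-fold. MBP1 and MBP2, myrosinase-binding proteins, were at least 209.9-fold and at least 102-fold higher, and read 2.46, 1.31 and -0.13 and 1.94, -0.43 and -1.17 in 35S:WIND1 callus against -3.42, -2.14 and -2.35 and -2.56, -1.74 and -2.34 in seedlings. TGG1, a myrosinase, was 203-fold higher than in T87 and at least 151-fold higher than in 2,4-D-induced callus. The indole branch, made from tryptophan, was uneven. CYP79B2 was 22.2-fold higher than in T87 and 2.24-fold higher than in 2,4-D-induced callus, while CYP79B3, which catalyses the same step, and MYB51, a regulator, were not called (-0.051 and 0.72). AK3, an aspartate kinase gene, was at least 148-fold higher. MAM1 was well above background on 1 of 3 T87 arrays and 1 of 3 2,4-D arrays, CYP83A1 on 1 of 3 T87 arrays, BCAT4 on 1 of 3 T87 arrays and 2 of 3 2,4-D arrays, GSTU20 on 1 of 3 T87 arrays and 1 of 3 2,4-D arrays and TGG1 on 1 of 3 T87 arrays. GSTF11 (2.08) lost its call with normexp background correction, which left 12 glucosinolate genes higher.

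Flavonoids are pigments and sunscreens of plant tissue, and anthocyanins are their coloured end products. Of 15 flavonoid genes 8 were higher and 1 lower (median 2.33). DFR (AT5G42800), the reductase that leads to anthocyanins, read -3.45, -2.04 and -0.44 on the 35S:WIND1 arrays, -7.61, -7.53 and -9.12 on the T87 arrays and -9.10, -8.10 and -9.003 on the 2,4-D arrays. PAP1, their MYB regulator, read -4.20, -2.03 and -0.76 on the 35S:WIND1 arrays, -6.30, -5.66 and -6.10 on the T87 arrays and -8.90, -7.94 and -8.06 on the 2,4-D arrays. TT4, chalcone synthase at the entry of the pathway, read -4.32, -2.87 and -1.61 on the 35S:WIND1 arrays, -8.68, -8.95 and -8.00 on the T87 arrays and -6.98, -6.39 and -4.97 on the 2,4-D arrays. Auxin callus arrays stayed beneath 35S:WIND1 arrays on all 3 genes, and the 35S:WIND1 calli spread over a wide range. DFR was at least 25.5-fold higher than in T87 and at least 22.4-fold higher than in 2,4-D-induced callus (log2 change 6.43, SE 0.66, adjusted p = 0.000174). TT4 was at least 13.1-fold higher than in T87 and 9.08-fold higher than in 2,4-D-induced callus (log2 change 4.40, SE 0.64, adjusted p = 0.000942). ANS and TT19, later steps, were at least 9.82-fold and at least 24.1-fold higher than the auxin mean, and PAP1 at least 15.0-fold. FLS1, UGT78D1 and UGT78D2, which make and decorate flavonols, were not called (-0.62, 0.53 and 0.32). PAP1 was well above background on 2 of 3 T87 arrays and TT4 on 1 of 3 2,4-D arrays. TT4 (1.12), DFR (1.81), ANS (0.87), TT19 (1.75) and PAP1 (1.35) lost their calls with normexp background correction, which left 1 flavonoid gene higher.

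Jasmonate is the hormone of wounding and herbivory. Of 30 jasmonate genes 16 were higher and 1 lower (median 1.43, or 1.39 with genes at their bounds). LOX2 (AT3G45140), the lipoxygenase that starts synthesis in leaves, read 1.82, 2.94 and 5.97 on the 35S:WIND1 arrays, 0.49, -1.25 and -1.60 on the T87 arrays and -5.12, -5.88 and -4.17 on the 2,4-D arrays. CORI3, a jasmonate-induced gene, read 2.01, 0.83 and 4.94 on the 35S:WIND1 arrays, -2.36, -7.20 and -7.13 on the T87 arrays and -6.40, -5.75 and -6.37 on the 2,4-D arrays. JAZ5, a repressor that jasmonate itself induces, read -0.25, -0.79 and -1.90 on the 35S:WIND1 arrays, -4.87, -5.10 and -3.94 on the T87 arrays and -4.36, -3.49 and -4.16 on the 2,4-D arrays. The 35S:WIND1 arrays were above all auxin callus arrays for the 3 genes. LOX2 was 20.5-fold higher than in T87 and 397-fold higher than in 2,4-D-induced callus (log2 change 6.50, SE 0.91, adjusted p = 0.000829), CORI3 286-fold higher than in T87 and 437-fold higher than in 2,4-D-induced callus (log2 change 8.47, SE 1.25, adjusted p = 0.00103) and JAZ5 12.6-fold higher than in T87 and 8.14-fold higher than in 2,4-D-induced callus (log2 change 3.34, SE 0.41, adjusted p = 0.00044). LOX4, AOS and AOC2, further synthesis genes, were 15.1-fold, 4.02-fold and at least 7.17-fold higher than the auxin mean, and JRG21, which hydroxylates the hormone, 18.8-fold. CYP94C1, which oxidizes its active form, was 15.8-fold lower than in T87 and 1.69-fold lower than in 2,4-D-induced callus. VSP1 and VSP2, storage protein genes of the response, were not called (-0.26 and 0.87). Of 12 salicylate and defence genes 3 were higher and 0 lower, and their median was 3.65 against T87 callus but -0.35 against 2,4-D-induced callus. PR5, a pathogenesis-related gene, was at least 5.06-fold higher than in T87 and 8.37-fold higher than in 2,4-D-induced callus. Of 9 defensins 1 was higher (11.1%, where 14.3% of all genes tested were), PDF1.3 (log2 change 1.94, limma adjusted p = 0.0443). Salicylate and defence calls (higher and lower) came to 1 and 0 with normexp, 5 and 0 with deposited values, and 6 and 0 without 35S:WIND1 replicate 1. Defensin calls (higher and lower) came to 0 and 0 with normexp, with quantile normalization, with median centring, with no filter on dim probes, with array weights per group, without 35S:WIND1 replicate 3, without any single T87 array or without any single 2,4-D array, 3 and 0 with deposited values, and 3 and 2 without 35S:WIND1 replicate 1. CORI3 was well above background on 1 of 3 T87 arrays and 1 of 3 2,4-D arrays, LOX2 on 2 of 3 2,4-D arrays, AOC2 on 1 of 3 2,4-D arrays and PR5 on 1 of 3 2,4-D arrays. LOX4 (2.13), AOC2 (0.60) and PR5 (0.48) lost their calls with normexp background correction.

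Genes of drying and abscisic acid were higher in 8 of 16 cases and lower in 0 (median 1.70). RD22 (AT5G25610), a dehydration gene, read 3.74, 4.49 and 4.35 on the 35S:WIND1 arrays, -3.06, -5.60 and -6.48 on the T87 arrays and -0.55, 0.76 and 0.77 on the 2,4-D arrays. RAB18, a dehydrin gene, read 0.74, 0.65 and 1.59 on the 35S:WIND1 arrays, -2.13, -2.48 and -3.96 on the T87 arrays and -4.70, -4.88 and -5.91 on the 2,4-D arrays. Neither gene's groups overlapped. RD22 was 605-fold higher than in T87 and 14.6-fold higher than in 2,4-D-induced callus (log2 change 6.56, SE 0.70, adjusted p = 0.00022), and RAB18 14.4-fold higher than in T87 and 71.3-fold higher than in 2,4-D-induced callus (log2 change 5.003, SE 0.46, adjusted p = 0.000108). NCED3, the enzyme that limits abscisic acid synthesis under drought, was at least 10.4-fold higher than in T87 and 8.02-fold higher than in 2,4-D-induced callus, and ERD10, another dehydrin, 12.5-fold higher than in T87 and 20.0-fold higher than in 2,4-D-induced callus. The phosphatases ABI1 and ABI2 and the factor ABI5, which carry the signal, were not called (0.75, -0.78 and 0.33). Ethylene genes were 2 higher and 2 lower of 16 (12.5% each), near the 14.3% and 9.74% of all genes tested. EBF2, which degrades the response factor EIN3, was 2.78-fold lower than in T87 and 2.18-fold lower than in 2,4-D-induced callus. Gibberellin genes were 3 higher and 1 lower of 13 (23.1% and 7.69%, beside the same 14.3% and 9.74%). GID1A, a gibberellin receptor, was 2.19-fold higher than the auxin mean. Ethylene calls (higher and lower) came to 1 and 2 with normexp, 1 and 4 with median centring or without 35S:WIND1 replicate 3, 2 and 0 with deposited values, and 2 and 1 without 35S:WIND1 replicate 1. Gibberellin calls (higher and lower) came to 0 and 0 with normexp, 3 and 2 with quantile normalization, without 35S:WIND1 replicate 3 or without T87 replicate 3, 0 and 3 with median centring, 8 and 0 with deposited values, and 1 and 3 without 35S:WIND1 replicate 2. NCED3 was well above background on 1 of 3 2,4-D arrays. GID1A (0.97) and NCED3 (1.52) lost their calls with normexp background correction. GID1A also lost its call with median scaling (0.75) and EBF2 lost its call with the series values as deposited (-0.72) and without 35S:WIND1 replicate 1 (-0.99).

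Photosynthesis genes differed from 2,4-D-induced callus far more than from T87 callus. Of 45 genes 24 were higher and 0 lower under the rule (median 1.62), but the median was 0.013 against T87 callus and 3.199 against 2,4-D-induced callus, and 6 genes were called against each. LHCA1, an antenna protein of photosystem I, read 5.23, 4.99 and 5.48 on the 35S:WIND1 arrays, 5.53, 5.26 and 5.53 on the T87 arrays and 2.90, 2.704 and 1.42 on the 2,4-D arrays, and RBCS1A, a Rubisco small subunit, 5.94, 5.93 and 6.44 on the 35S:WIND1 arrays, 6.60, 6.26 and 6.62 on the T87 arrays and 2.46, 2.48 and 0.69 on the 2,4-D arrays. Both stood in T87 callus at or above the level of 35S:WIND1 callus. CA2 (AT5G14740), a carbonic anhydrase, read -1.37, -0.23 and 1.33 on the 35S:WIND1 arrays, -6.03, -5.71 and -6.67 on the T87 arrays and -8.02, -7.63 and -7.34 on the 2,4-D arrays, and was higher than in either. RBCS2B, another Rubisco small subunit, read -0.046, -0.94 and 2.77 on the 35S:WIND1 arrays, -2.79, -4.36 and -4.19 on the T87 arrays and -8.62, -7.69 and -7.62 on the 2,4-D arrays. CA2 was 66.3-fold higher than in T87 and at least 82.9-fold higher than in 2,4-D-induced callus (log2 change 6.81, SE 0.53, adjusted p = 5.36e-05), and RBCS2B 20.7-fold higher than in T87 and at least 133-fold higher than in 2,4-D-induced callus (log2 change 6.47, SE 0.78, adjusted p = 0.000389). Near-identical LHCB and RBCS copies may share signal. Centring on the median or normexp lowered the count of higher genes to 15, and the deposited series values raised it to 35. Of 18 chlorophyll genes 5 were higher, but 2 without 35S:WIND1 replicate 3 or with median centring, 3 without T87 replicate 2 and 1 with normexp. GLK2, a regulator of chloroplast development, was 4.72-fold higher than in T87 and 39.1-fold higher than in 2,4-D-induced callus, and GLK1, its relative, 1.68-fold higher than in T87 and at least 14.8-fold higher than in 2,4-D-induced callus. PIF4 (AT2G43010), a factor that light receptors hold in check, read 2.48, 2.18 and 3.21 on the 35S:WIND1 arrays, -1.91, -4.40 and -2.87 on the T87 arrays and -4.72, -4.17 and -5.15 on the 2,4-D arrays and was 51.4-fold higher than in T87 and 157-fold higher than in 2,4-D-induced callus (log2 change 6.49, SE 0.52, adjusted p = 6.05e-05). CA2 was well above background on 2 of 3 T87 arrays. GLK1 (0.68) lost its call with normexp background correction. GLK1 also lost its call without 35S:WIND1 replicate 3 (2.21), where its log2 change was -0.43 against T87 callus and 4.85 against 2,4-D-induced callus.

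Wall-loosening enzymes were mostly higher. Of 23 XTH and expansin genes, whose products cut and loosen the growing wall, 14 were higher and 1 lower (median 2.15). XTH31 (AT3G44990) read 0.89, 2.11 and 1.31 on the 35S:WIND1 arrays, -4.42, -5.44 and -6.71 on the T87 arrays and -6.79, -5.87 and -4.77 on the 2,4-D arrays. XTH9 read 4.01, 4.05 and 3.28 on the 35S:WIND1 arrays, -1.52, -2.98 and -1.65 on the T87 arrays and 1.44, 1.48 and 1.41 on the 2,4-D arrays. EXPA1 read 3.21, 3.202 and 1.86 on the 35S:WIND1 arrays, 4.84, 5.31 and 5.34 on the T87 arrays and 3.87, 4.29 and 4.56 on the 2,4-D arrays. XTH31 and XTH9 were above all auxin callus arrays and EXPA1 beneath them. XTH31 was 124-fold higher than in T87 and 152-fold higher than in 2,4-D-induced callus (log2 change 7.10, SE 0.59, adjusted p = 7.12e-05), XTH9 56.9-fold higher than in T87 and 5.05-fold higher than in 2,4-D-induced callus (log2 change 4.08, SE 0.34, adjusted p = 6.72e-05), and EXPA1 5.31-fold lower than in T87 and 2.80-fold lower than in 2,4-D-induced callus (log2 change -1.95, SE 0.33, adjusted p = 0.00201). XTH6 was at least 103-fold higher and XTH18 6.75-fold higher than the auxin mean. Glutathione transferases, which join glutathione to reactive compounds, were higher in 10 and lower in 1 of 24 cases. GSTU16 was 6.12-fold higher than in T87 and 2.99-fold higher than in 2,4-D-induced callus, and GSTU19 was not called (-0.28). With median centring 6 transferases were higher. XTH31 was well above background on 2 of 3 T87 arrays and 1 of 3 2,4-D arrays. Normexp background correction left 7 XTH and expansin genes higher.

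Most hypoxia genes were lower in 35S:WIND1 callus. They are switched on when tissue runs short of oxygen and sugars must be fermented. Of 13 such genes 11 were lower and 0 higher (median -2.10), and 4 were called against each auxin callus. PCO1 (AT5G15120), an oxidase that senses oxygen, read -0.72, 1.26 and 0.63 on the 35S:WIND1 arrays, 4.37, 4.201 and 4.37 on the T87 arrays and 2.16, 2.24 and 2.42 on the 2,4-D arrays. HRE1, a factor that sustains the response, read -1.44, -0.93 and -0.56 on the 35S:WIND1 arrays, 0.39, 0.26 and 0.37 on the T87 arrays and 2.73, 2.72 and 2.49 on the 2,4-D arrays. ADH1, alcohol dehydrogenase, read 2.08, 4.96 and 3.47 on the 35S:WIND1 arrays, 5.34, 5.40 and 5.30 on the T87 arrays and 5.65, 6.01 and 5.88 on the 2,4-D arrays. The 3 genes lay below every auxin callus array in every 35S:WIND1 callus, and for ADH1 the 35S:WIND1 calli ranged widely, with replicate 1 lowest and replicate 2 highest. The list's median level was -1.16, 1.395 and 0.12 in the 3 calli, 1.23 to 1.52 on the T87 arrays and 2.79 to 3.203 on the 2,4-D arrays. PCO1 was 15.2-fold lower than in T87 and 3.69-fold lower than in 2,4-D-induced callus (log2 change -2.91, SE 0.37, adjusted p = 0.000533). HRE1 was 2.49-fold lower than in T87 and 12.3-fold lower than in 2,4-D-induced callus (log2 change -2.47, SE 0.19, adjusted p = 4.8e-05). ADH1 was 3.599-fold lower than in T87 and 5.09-fold lower than in 2,4-D-induced callus (log2 change -2.10, SE 0.52, adjusted p = 0.0116). PDC1, pyruvate decarboxylase, had levels of -3.90, 1.48 and -1.95 on the 35S:WIND1 arrays, 1.33, 1.86 and 1.303 on the T87 arrays and 2.90, 3.23 and 3.51 on the 2,4-D arrays, so 35S:WIND1 replicate 2 overlapped T87 callus, and its log2 change was -3.81 (adjusted p = 0.0135). SUS4, a sucrose synthase, read -2.02, 0.75 and -1.96 on the 35S:WIND1 arrays, 0.08, -0.73 and -0.17 on the T87 arrays and 2.99, 3.301 and 3.405 on the 2,4-D arrays, and was 1.74-fold lower than in T87 and 19.8-fold lower than in 2,4-D-induced callus, with 35S:WIND1 replicate 2 above all T87 arrays. HRE2 and SUS1 were not called (0.13 and -0.68). The count of lower genes was 7 without 35S:WIND1 replicate 3 and without any single T87 or 2,4-D array, 7 with normexp, and with the deposited series values 6. ADH1 lost its call with the series values as deposited (-1.51).

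**Figure D5:**
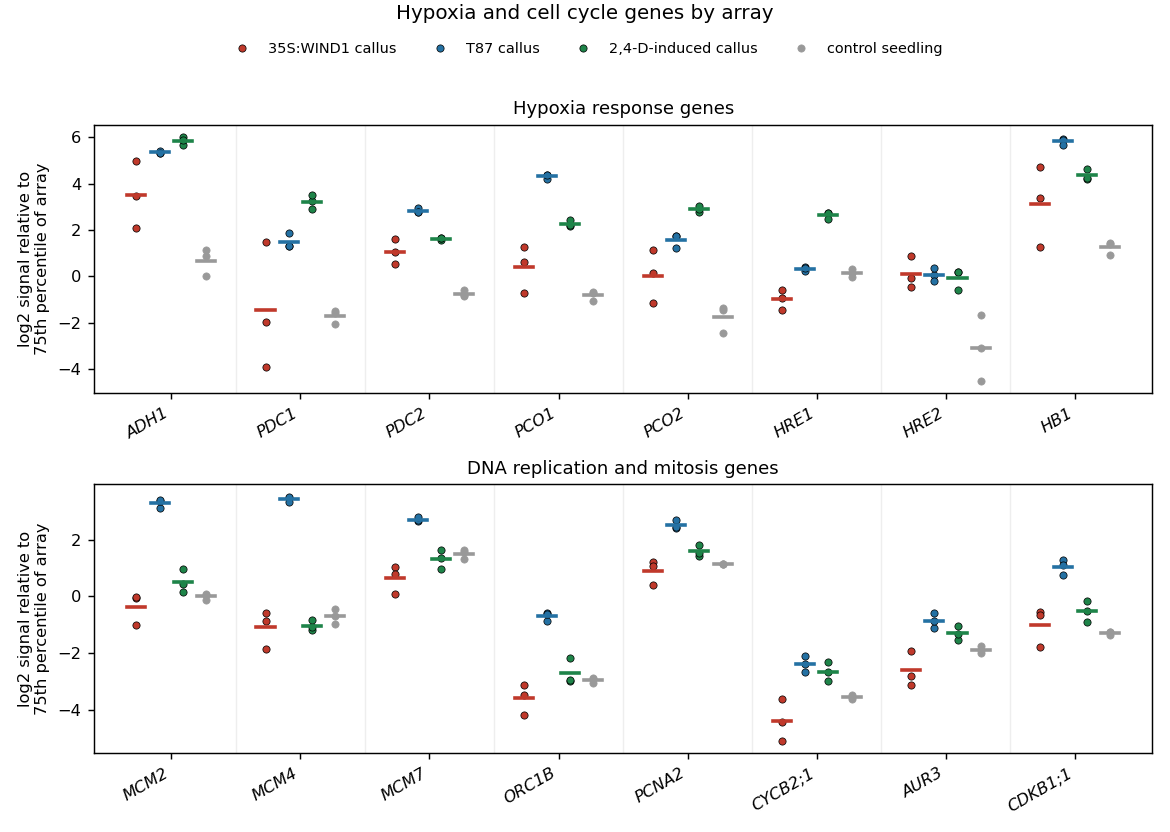
Log2 signal relative to the 75th percentile of each array for hypoxia response genes (upper panel) and for DNA replication and mitosis genes (lower panel), 1 point per array and a bar at each group mean. PCO1 and HRE1 lie lower on every 35S:WIND1 array than on any auxin callus array, PDC1 spreads widely in 35S:WIND1 callus, and MCM4 is high in T87 callus and close together in the other calli.

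Nitrogen genes were lower in part. Of 10 nitrate uptake and reduction genes 5 were lower and 0 higher (median -1.81). NRT2.6 (AT3G45060), a high-affinity nitrate transporter, read -5.99, -1.76 and -0.67 on the 35S:WIND1 arrays, 5.08, 3.79 and 4.80 on the T87 arrays and -0.30, 1.36 and 0.60 on the 2,4-D arrays, and was 165-fold lower than in T87 and 10.3-fold lower than in 2,4-D-induced callus (log2 change -5.36, SE 1.07, adjusted p = 0.00434). The count of lower genes was 3 without 35S:WIND1 replicate 1 or with normexp and 2 with the deposited series values. NIA2, nitrate reductase, was not called (-0.20). NRT1.5, which loads nitrate into the xylem, was higher and read 0.041, 1.44 and 4.69 on the 35S:WIND1 arrays, -2.17, -3.26 and -4.94 on the T87 arrays and -1.29, -3.30 and -4.45 on the 2,4-D arrays. The values of each group fell over a wide range, but the groups did not overlap, which its naming rule required. The gene was 45.8-fold higher than in T87 and 33.7-fold higher than in 2,4-D-induced callus (log2 change 5.30, SE 1.14, adjusted p = 0.00605). GLN1;4 (AT5G16570), a cytosolic glutamine synthetase, read -4.66, -4.66 and -4.32 on the 35S:WIND1 arrays, 0.10, 1.36 and 1.22 on the T87 arrays and -0.12, 0.15 and 1.61 on the 2,4-D arrays. NIT4, a nitrilase that detoxifies cyanide products, read -3.34, -2.83 and -1.37 on the 35S:WIND1 arrays, 2.84, 3.61 and 3.103 on the T87 arrays and 2.75, 2.74 and 2.54 on the 2,4-D arrays. HA4, a plasma membrane proton pump, read -5.002, -5.43 and -2.41 on the 35S:WIND1 arrays, 2.53, 2.02 and 1.42 on the T87 arrays and 4.28, 3.99 and 2.85 on the 2,4-D arrays. For these 3 genes every 35S:WIND1 array was far under every auxin callus array, and the rule that named them required no overlap. GLN1;4 was 43.5-fold lower than in T87 and 34.2-fold lower than in 2,4-D-induced callus (log2 change -5.27, SE 0.42, adjusted p = 6.13e-05). NIT4 was 51.9-fold lower than in T87 and 36.5-fold lower than in 2,4-D-induced callus (log2 change -5.44, SE 0.40, adjusted p = 4.19e-05). HA4 was 77.1-fold lower than in T87 and 254-fold lower than in 2,4-D-induced callus (log2 change -7.13, SE 0.67, adjusted p = 0.000121), and 35S:WIND1 replicate 3 was its highest of the 3.

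DNA replication genes were lower in most cases, mitosis genes in fewer. Of 21 DNA replication genes 16 were lower and 0 higher (median -1.26), with a median of -2.07 against T87 callus and -0.50 against 2,4-D-induced callus, and 1 was called against each. MCM2 (AT1G44900), a subunit of the replicative helicase, read -0.071, -0.035 and -0.999 on the 35S:WIND1 arrays, 3.12, 3.36 and 3.39 on the T87 arrays and 0.14, 0.45 and 0.95 on the 2,4-D arrays. ORC1B, a subunit of the origin recognition complex, read -3.13, -3.47 and -4.16 on the 35S:WIND1 arrays, -0.87, -0.60 and -0.62 on the T87 arrays and -2.96, -2.93 and -2.15 on the 2,4-D arrays. MCM4, another helicase subunit, read -0.57, -0.86 and -1.84 on the 35S:WIND1 arrays, 3.46, 3.52 and 3.33 on the T87 arrays and -1.19, -1.07 and -0.84 on the 2,4-D arrays. MCM2 and ORC1B were below all auxin callus arrays, but MCM4 in 35S:WIND1 callus overlapped 2,4-D-induced callus. MCM2 was 12.6-fold lower than in T87 and 1.84-fold lower than in 2,4-D-induced callus (log2 change -2.27, SE 0.26, adjusted p = 0.000319), ORC1B 7.42-fold lower than in T87 and 1.87-fold lower than in 2,4-D-induced callus (log2 change -1.90, SE 0.27, adjusted p = 0.000836). Mitosis genes were lower in 10 and higher in 0 of 23 cases (median -0.96). CYCB2;1, a cyclin of mitotic entry, read -3.62, -4.42 and -5.08 on the 35S:WIND1 arrays, -2.66, -2.09 and -2.39 on the T87 arrays and -2.98, -2.66 and -2.32 on the 2,4-D arrays, and AUR3, a kinase of chromosome alignment, -1.91, -3.11 and -2.80 on the 35S:WIND1 arrays, -1.10, -0.60 and -0.88 on the T87 arrays and -1.54, -1.32 and -1.03 on the 2,4-D arrays. Neither overlapped between the groups. CYCB2;1 was 3.98-fold lower than in T87 and 3.298-fold lower than in 2,4-D-induced callus (log2 change -1.86, SE 0.31, adjusted p = 0.002) and AUR3 3.35-fold lower than in T87 and 2.47-fold lower than in 2,4-D-induced callus (log2 change -1.53, SE 0.27, adjusted p = 0.00244). The cytokinesis syntaxin KNOLLE, and CYCB1;1, were not called (-0.61 and -0.12). KRP2, an inhibitor of cyclin-dependent kinases, was 7.01-fold higher than in T87 and 3.46-fold higher than in 2,4-D-induced callus, and KRP3, its relative, 4.15-fold lower than in T87 and 1.96-fold lower than in 2,4-D-induced callus. Of 16 D-type cyclins and KRP genes 4 were higher, or 2 with normexp, median centring or quantile normalization, and 1 lower. These 4 and 1 are 25% and 6.25%, where 14.3% and 9.74% of all genes tested were. The mitosis count was 18 with median scaling, 1 with the deposited series values, 0 with normexp, 16 without 35S:WIND1 replicate 1, 3 without replicate 3 and 6 without 2,4-D replicate 3, and the replication count 4 with the deposited values and 6 with normexp. MCM4 (-1.95), ORC1B (-0.87), CYCB2;1 (-0.59), AUR3 (-0.85) and KRP3 (-0.58) lost their calls with normexp background correction. MCM4 also lost its call with the series values as deposited (-1.71), without 35S:WIND1 replicate 3 (-1.92) and without 2,4-D replicate 3 (-2.24). Its log2 change against 2,4-D-induced callus was then 0.60, 0.32 and 0.040, and 0.13 with normexp, so it was no longer lower there. With the series values as deposited AUR3 (-0.94) and KRP3 (-0.93) also lost their calls.

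The remaining lists gave few calls. Of 18 heat shock genes 3 were lower and 0 higher, with a median of -3.08 against T87 callus and 0.84 against 2,4-D-induced callus. HSP17.6A, a small heat shock protein, read -2.20, -1.76 and -2.56 on the 35S:WIND1 arrays, 1.33, 1.46 and 1.51 on the T87 arrays and -4.27, -3.48 and -4.38 on the 2,4-D arrays, between the auxin calli, and was not kept. Clock genes were 1 higher and 1 lower of 12 (8.33% each), where 14.3% of all genes tested were higher and 9.74% lower. PRR5, which represses morning genes, was 3.53-fold lower than in T87 and 3.28-fold lower than in 2,4-D-induced callus. DNA methylation and Polycomb genes were 2 higher and 2 lower of 19 (10.5% each), also near the shares of all genes. DML3, a demethylase, was at least 1.62-fold higher than in T87 and at least 1.42-fold higher than in 2,4-D-induced callus, and MET1, which maintains methylation, 2.85-fold lower than in T87 and 1.64-fold lower than in 2,4-D-induced callus. Of 12 housekeeping genes limma called 0 higher and 0 lower, with 6 at an unadjusted p under 0.05 (median 0.094), and 2 were called higher with the deposited series values. Heat shock calls (higher and lower) came to 0 and 0 with deposited values, and 0 and 1 without 35S:WIND1 replicate 1. Clock calls (higher and lower) came to 0 and 0 with normexp, 0 and 3 with median centring, and 3 and 0 with deposited values. DNA methylation and Polycomb calls (higher and lower) came to 0 and 2 with normexp, 2 and 7 with median centring, 3 and 0 with deposited values, and 2 and 1 without 35S:WIND1 replicate 3. PRR5 (-1.10), MET1 (-0.90) and DML3 (0.28) lost their calls with normexp background correction. PRR5 also lost its call with the series values as deposited (-1.18) and MET1 also lost its call with the series values as deposited (-0.53), without 35S:WIND1 replicate 2 (-0.96) and without 35S:WIND1 replicate 3 (-0.91).

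Some genes were switched between measured and not. Of the called genes, 305 were well above background on all 35S:WIND1 arrays and on none of the 6 auxin callus arrays, and 227 of these were so on all 3 seedling arrays, 44 on none. The reverse held for 46 genes, of which 13 were measured on all seedling arrays and 27 on none. QQS (AT3G30720), a short protein gene that affects starch content, had the largest bound of the lower genes named and read -7.27, -8.10 and -6.64 on the 35S:WIND1 arrays, 0.28, 0.13 and 0.59 on the T87 arrays and 1.62, 1.62 and 1.86 on the 2,4-D arrays. All arrays of 35S:WIND1 callus were at background, which the rule that named QQS required, and seedlings read -2.94, -4.29 and -3.19. It was at least 126-fold lower than in T87 and at least 325-fold lower than in 2,4-D-induced callus (adjusted p = 3.13e-06). MYB101, a factor of pollen tubes, was at least 32.4-fold lower than the auxin mean. MAF5, a relative of the flowering repressor FLC, was at least 10.3-fold lower, and NRPE3B, a subunit of RNA polymerase V, at least 10.2-fold lower. GSO1, a receptor kinase of the root barrier, was at least 7.47-fold lower. AGL17, a root MADS factor, read -5.61, -3.79 and -5.38 on the 35S:WIND1 arrays, -0.70, 0.18 and -1.88 on the T87 arrays and 1.26, 0.99 and 0.55 on the 2,4-D arrays and was 17.44-fold lower than in T87 and 57.9-fold lower than in 2,4-D-induced callus (log2 change -4.99, SE 0.53, adjusted p = 0.000213). MYB56, which restrains flowering and sets seed size, was 14.3-fold lower than in T87 and 18.8-fold lower than in 2,4-D-induced callus. CIPK25, a calcium-signalling kinase, was 16.6-fold lower than in T87 and 31.8-fold lower than in 2,4-D-induced callus. Among all called genes, 2703 of the 2942 higher and 1495 of the 1998 lower were well above background on all seedling arrays, and 121 and 391 on none. For these seedling counts, and those of the 305 and 46 genes above, the share among all genes tested is not given here. They therefore do not set the called genes apart. MYB101 (-1.87), MAF5 (-1.33), NRPE3B (-1.01) and GSO1 (-1.01) lost their calls with normexp background correction.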

How the data were processed

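Transcript levels were measured with Cy3-labelled RNA on one-colour Agilent arrays, 3 per group, and titles of the samples gave their groups and replicate numbers. Per the file headers, the deposited files give each spot's linear intensity after the scanner software's background subtraction. Per the submitters' processing notes this was Agilent Feature Extraction 9.1.3.1. The authors' deposited series values are natural log signals. Comparison with the scanner signals showed that 1 constant per group, of unknown purpose, had been taken off, and they served only as an alternative. The sources used here name no genome build.

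Computed here were log2 processed signals minus the 75th percentile of the array, taken over 37685 spots that are not controls. Outlier spots were removed, 25 to 81 per array, and spots of a probe averaged. A probe was tested if all 3 arrays of 1 or more callus groups had it well above background, and a gene took its brightest probe. Locus codes are those of the scanner files, 25449 of 25665 loci matched a TAIR10.1 table, and 9005 of 20516 genes tested had a symbol. Of 442 genes with several probes, 0 had probes called in opposite directions. The 9 callus arrays were fitted with two-sided limma 3.58.1 tests (lmFit, eBayes; R 4.3.3) without a block. Seedlings stayed out of the fit because they varied less in earlier results. A call needed a Benjamini-Hochberg adjusted p under 0.05 over all genes, a change of at least 2-fold, and the same sign against each auxin callus. "At least N-fold" marks a gene that no array of the dimmer group had well above background. For a gene higher than the auxin mean, 1 auxin callus without such an array was enough. An auxin callus with such an array then kept its mean. Each array of a group without any took a floor, its lowest signal well above background or the signal of the gene, whichever was higher. Genes measured on part of a group are given with the number of arrays.

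The comparison and its 43 lists, with 784 members of which 699 were tested, were chosen with earlier results of these data known. Named by rule were WIND1, the 10 largest measured changes and 8 largest bounds per direction, and up to 3 members per list and direction. Bounds were ranked by the bound against the mean of both auxin calli, measured changes and list members by the smaller of both changes. Each gene named for a measured change or a bound had a symbol, and its transgenic callus arrays did not overlap the auxin callus arrays. The text gives part of the genes named by rule. Other genes it names were chosen for their role after their values were seen. Alternatives were normexp background correction (offset 50), quantile normalization, median scaling, the deposited series values, other filters, the mean of probes, the replicate as a block, all 12 arrays, array weights, and each array left out. Normexp was run on median spot signals in place of the planned mean signals. The fit was also run on simulated data in which every gene had the median SD of its group, without a background floor. That run cannot show how the fit treats genes that vary more or lie near background.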

Additional observations from a re-analysis of the deposited data

Results flagged for a closer look

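Probes named in the files by a genomic position, with no locus code, lie outside the gene results. Of 2099 such probes that passed the filter, 217 were called higher in 35S:WIND1 callus than the mean of both auxin calli and 218 lower, with the same sign against each. That is 20.7% in all by limma at the same thresholds, where 24.1% of genes tested were called. No level of them is compared with that of a gene, and no control group without transcripts exists for them.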

How the results depend on the processing

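No called gene was called in the opposite direction under any alternative run. Normexp background correction gave 1222 higher and 563 lower genes. Median scaling gave 2278 and 3840, and the deposited series values 5141 and 773. Testing only probes well above background on all 9 arrays, which leaves 16727 genes, gave 1603 and 1304, with 4 shoot meristem, 6 xylem, 5 glucosinolate and 11 epidermis genes among the higher. Requiring a call against each auxin callus gave 1766 and 704, and requiring arrays that do not overlap 2112 and 1067. Apart from those constructions the cause of the shifts was not tested. Quantile normalization, no filter, the mean of probes, all 12 arrays and array weights stayed within 1.5 times of the 2942 higher and 1998 lower genes. Leaving out each array gave 2839 to 2984 higher and 1831 to 2086 lower genes. Replicate numbers did not pair the samples: deviations of same-numbered arrays correlated at -0.157 to 0.133 over 9 pairs, other pairs at -0.187 to 0.209, and 3 of 9 arrays correlated best with their own number. With the number, which is also the slide, as a replicate block 2898 genes were higher and 1963 lower. Of 179 genes named by rule, 88 lost their call with normexp, 28 with the deposited values, 17 with median scaling and 7 with quantile normalization. Folds are bounds only where a group of the dimmer side had no array well above background. Where part of its arrays were, the fold is not a bound and rests partly on signals near background. The large folds of LTP4, STM, MAM1 and CYP83A1 over T87 callus are of this kind.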

Other observations

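Further genes named by rule belong to no list. MYB47, a MYB factor gene, read 0.16, 0.17 and -1.16 on the 35S:WIND1 arrays, and was at least 77.7-fold higher than the auxin mean. PAP20, a purple acid phosphatase gene, read -4.07, -5.01 and -2.77 on the 35S:WIND1 arrays, -0.27, 0.24 and -0.90 on the T87 arrays and -0.54, -0.19 and 0.084 on the 2,4-D arrays, and was 12.5-fold lower than in T87 and 13.3-fold lower than in 2,4-D-induced callus (limma, adjusted p = 0.000506). Its 35S:WIND1 arrays were beneath all 6 auxin callus arrays, which its naming rule required. PGAZAT, a polygalacturonase gene of organ shedding, was at least 19.6-fold lower than the auxin mean, the NAC factor gene NAC048 at least 16.4-fold lower, and SDR5, a short-chain dehydrogenase gene, at least 22.8-fold lower. SDR5 (-1.78), PGAZAT (-1.50) and NAC048 (-1.34) lost their calls with normexp background correction.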
